A study of Mus musculus with 12 samples.

Results

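The 8 genes Sycp1, Sycp2, Sycp3, Syce1, Syce2, Tex12, Hormad1 and Hormad2 encode parts of the synaptonemal complex and of the chromosome axis of meiotic cells. They were taken by symbol from the 22552 gene symbols measured in mouse germ cells, and all 8 were among the 14111 symbols with at least 1 FPKM (fragments per kilobase of transcript, scaled to the mapped fragments of the library) in 2 or more of 8 libraries. The rule names symbols and uses no measured value, but the genes were proposed with earlier results of these data known. Male germ cells of F1 mice from DBA/2 and C57BL6 parents were separated by STAPUT, a sedimentation method that sorts cells by size, and their total RNA was sequenced. Each of 4 stages had 2 libraries. Primitive type A spermatogonia (priSG-A) were taken 7 days after birth, preleptotene spermatocytes (plpSC) and pachytene spermatocytes (pacSC) both 17 days after birth, and round spermatids (rST) from adults of 60 days. Lists of circular RNAs were made from stem cells (SSCs) that had been taken 5 days after birth and cultured, with 2 libraries treated with RNase R, which digests linear RNA, and 2 left untreated. No transgene, deletion or drug is named for any group, and the labels do not say whether animals were pooled or whether replicates came from separate animals, so a p-value here refers to the spread of these libraries, which may be technical.

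The synaptonemal complex is the zipper-like protein structure that holds homologous chromosomes together during meiotic prophase. Its lateral elements grow from the chromosome axes and contain SYCP2 and SYCP3. SYCP1 forms the transverse filaments that cross the gap between homologues, and the central element in the middle contains SYCE1 and the SYCE2 and TEX12 assembly. HORMAD1 and HORMAD2 coat axes that have not synapsed and leave the axis once synapsis is complete. The complex is built after the preleptotene stage, is complete in pachytene cells and is gone from round spermatids.

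The width of the deposited confidence bounds gave each library a depth of 23520448 to 34923958 effective fragments. Marker genes showed some libraries standing apart from their labels. The summed FPKM of 10 pachytene markers was 3097 and 1395 in plpSC, 3720 and 3093 in pacSC, and in rST 3149 and 3047, so it did not set pacSC apart from rST. Ldhc alone gave 1943 of the 3097, whereas Hist1h1t, which was highest in pacSC, stood at 733 and 704 FPKM in pacSC, against 144 and 145 in plpSC. Likewise Piwil1 stood at 104 and 108 FPKM in pacSC, against 29.7 and 25.1 in plpSC. Of the 10 markers, 5 were higher in pacSC than in plpSC at a limma adjusted p under 0.05 and none lower. Of all tested genes, 4.22% were higher and 21.6% lower. Pgk2 stood at 279 and 111 FPKM in plpSC and 135 and 139 in pacSC, and Ccna1 at 177 and 66.7 against 95.3 and 100. Both thus overlapped between these stages. Across the tested genes plpSC replicate 1 correlated with both pacSC libraries (r = 0.937 and 0.939) as closely as with its own replicate (r = 0.935). Stra8, which germ cells switch on as they enter meiosis, stood at 166 and 145 FPKM in priSG-A, 43.9 and 100 in plpSC, 7.51 and 4.75 in pacSC, and in rST 9.08 and 7.87, so it was not highest in the cells labelled preleptotene. Among 8 markers of differentiating and preleptotene cells, 1 was called higher in plpSC than in priSG-A and 6 lower, against 24.4% and 41.3% of all tested genes. The higher marker was Dmrtb1, at 20.0 and 16.4 FPKM in priSG-A and 185 and 84.2 in plpSC. The 10 round spermatid markers summed to 1296 and 518 FPKM in plpSC, 464 and 5530 in pacSC, and in rST 34890 and 39950. The 6 Leydig cell markers summed to 43.5 FPKM in pacSC replicate 1 and 834 in pacSC replicate 2. The 9 Sertoli cell markers present summed to 1258 and 1273 FPKM in priSG-A, against 22.3 to 239 in the other 6 libraries, and Amh, a defining Sertoli cell gene, was listed at 0 in rST replicate 2. The 7 peritubular myoid and stromal markers summed to 136 and 495 FPKM in plpSC, against 10.3 to 105 in the other 6 libraries, and the erythroid markers to 210 and 422 in plpSC, against 1.19 to 21.1. The part of these cells in the values below was not tested, and the counts of called genes in the 5 comparisons are also given without plpSC replicate 1 and without pacSC replicate 2. In bulk samples such as these, fewer cells of a type and less RNA per cell cannot be told apart.

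The 8 genes did not share a single course. By stage mean, Sycp2, Sycp3, Tex12 and Hormad1 were highest in pacSC, Sycp1 and Hormad2 in plpSC, and Syce1 and Syce2 in rST. The highest stage mean exceeded the lowest 9.56-fold for Sycp2, 9.39-fold for Syce1, 6.34-fold for Tex12, 5.90-fold for Hormad1, 3.10-fold for Sycp3, 3.03-fold for Syce2, 2.50-fold for Sycp1 and 2.26-fold for Hormad2. A limma F test over the 4 stage means called all 8 genes at a Benjamini-Hochberg adjusted p under 0.05, as it did 88.5% of all tested genes, so that count does not set them apart. All 8 were measured in both priSG-A libraries, where the lowest, Hormad2, stood at 4.76 and 6.75 FPKM and the highest, Syce2, at 106 and 112.

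**Figure D1:**
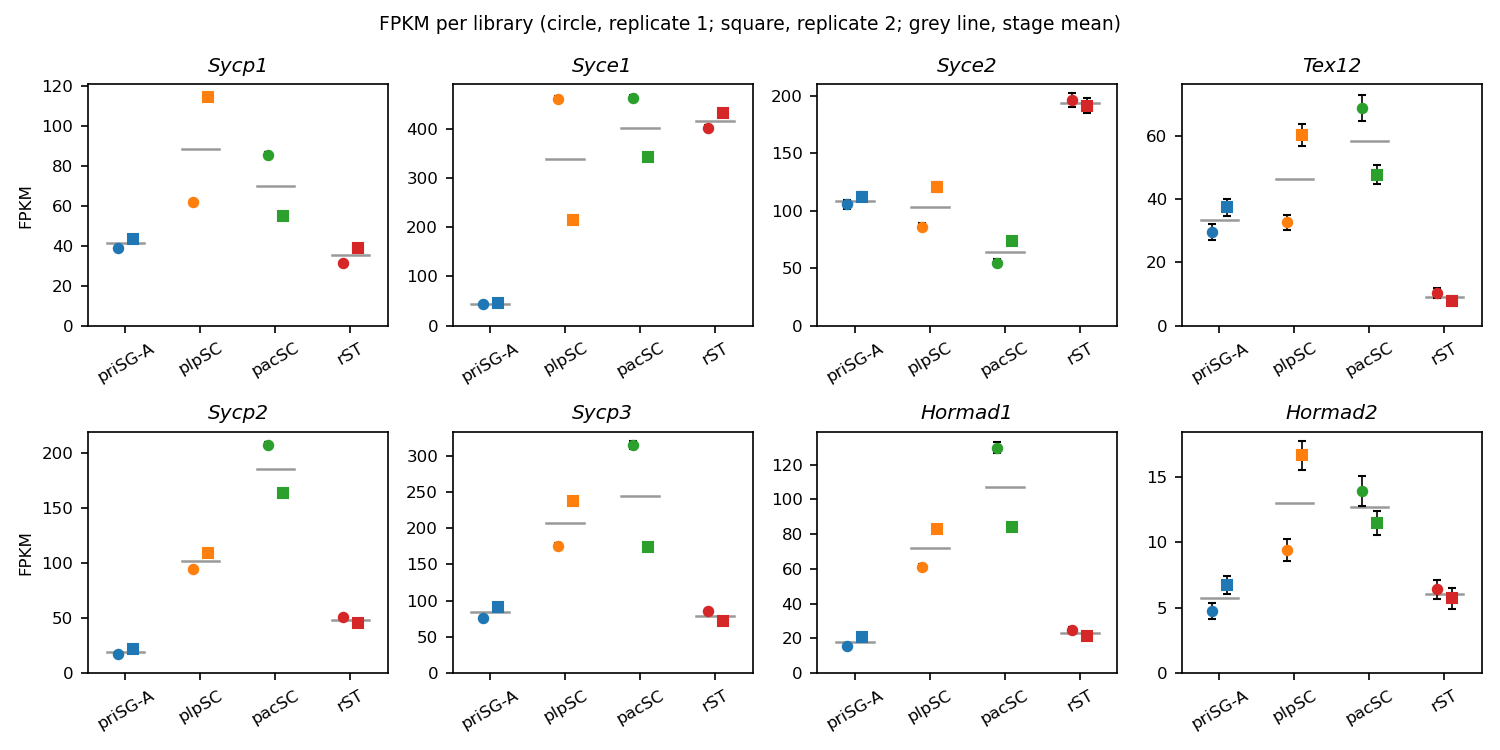
FPKM of each of the 8 genes (vertical axes, linear from 0) in the 2 libraries of each stage (horizontal axes, priSG-A to rST). Circles are replicate 1, squares replicate 2, bars the deposited confidence bounds where wider than the point, and grey lines the stage means. Sycp2 and Hormad1 are highest in pacSC replicate 1, Syce1 stays between 215 and 462 FPKM in all 6 later libraries, and Syce2 is highest in rST at 197 and 192 FPKM.

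Comparisons between stages used differences of log2(FPKM + 1), which understate the change of low genes, and a gene was called at an adjusted p under 0.05 over all 14111 tested genes. In plpSC against priSG-A, 6 of the 8 genes rose and none fell, whether or not p was adjusted. Of all tested genes, 24.4% rose and 41.3% fell (65.7% in either direction). With the 4 compared libraries alone, 4 of the 8 were called, with Sycp1 and Hormad2 lost, against 55.7% of all tested genes. Both plpSC libraries lay above both priSG-A libraries for 6 of the 8 genes and below them for none, against 33.1% and 53% of all tested genes. The median log2 difference was 1.15 over the 8 genes and -0.35 over all tested genes. The count was 6 without plpSC replicate 1 (60.5% of all tested genes called in either direction), 6 without pacSC replicate 2 (66.2%) and 7, with Tex12 added, without both (72.5%). Leaving out priSG-A replicate 1 left 3 calls, with Sycp1, Sycp3 and Hormad2 lost (45.8%).

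In pacSC against plpSC, Sycp2 was the only member called higher, where 4.22% of all tested genes rose. None was called lower by limma (1 at an unadjusted p under 0.05, Syce2), where 21.6% of all tested genes fell (25.8% in either direction). The libraries of the 2 stages did not overlap for Sycp2 and Hormad1, higher in pacSC, and Syce2, lower in pacSC, where 14.1% and 42.7% of all tested genes stood apart in those directions. The medians were 0.26 over the 8 genes and -0.25 over all tested genes. The call of Sycp2 was lost when either pacSC library, either priSG-A library or either rST library was left out, and without pacSC replicate 2 limma called 8.96% of all tested genes. Without plpSC replicate 1 there were 3 calls, with Syce1 higher and Syce2 lower besides Sycp2, where 51.5% of all tested genes were called, and the same 3 without both (61.7%).

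In rST against pacSC, 5 genes fell (Sycp2, Sycp3, Tex12, Hormad1 and Hormad2) and Syce2 rose, where 16.7% of all tested genes fell and 17.7% rose (34.4% in either direction). Both rST libraries lay below both pacSC libraries for 6 of the 8 genes and above them for 1, against 40.4% and 37.6% of all tested genes. The medians were -1.26 over the 8 genes and -0.03 over all tested genes. Without rST replicate 2 no member was called, and only 2 of the 14111 tested genes were, while the differences of the 6 called members kept their signs. Without pacSC replicate 2, the one with the higher round spermatid marker sum, 5 of the 6 calls remained, with Hormad2 lost (28.6% of all tested genes called). Without plpSC replicate 1 there were 7, with Sycp1 added (52.2%), and the same 7 without both (58.1%). The calls of Sycp3 and Hormad2 were lost without pacSC replicate 1, and likewise without rST replicate 1. In both fits fewer of all tested genes were called than with all 8 libraries. With any 1 library left out, the log2 difference ranged from -1.99 to -1.14 for Sycp3 and from -1.08 to -0.82 for Hormad2.

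Over the longer spans, pacSC against priSG-A gave 5 genes higher (Sycp2, Syce1, Hormad1, Sycp3 and Hormad2) and Syce2 lower, where 26.7% of all tested genes rose and 50.2% fell (76.9% in either direction). The pacSC libraries lay wholly above those of priSG-A for 7 of the 8 genes and below them for Syce2, against 34.1% and 57.6% of all tested genes. In rST against priSG-A, Syce1, Sycp2 and Syce2 were higher and Tex12 was lower, where 29.5% of all tested genes rose and 53.6% fell (83% in either direction). The rST libraries lay wholly above those of priSG-A for 4 of the 8 genes and below them for 1, against 35.8% and 60.5% of all tested genes. The other 4 genes, Sycp1, Sycp3, Hormad1 and Hormad2, did not pass this test, with log2 differences of -0.23, -0.09, 0.34 and 0.08. The median of all tested genes was -0.60 in pacSC against priSG-A and -0.76 in rST against priSG-A, so these values depend on how libraries are scaled. With each library centred on its median, Syce2 was no longer called in pacSC against priSG-A (-0.18), Sycp1 and Tex12 were called higher there, and Hormad1 and Hormad2 were called higher in rST against priSG-A. In pacSC against priSG-A the call of Syce2 was also lost without priSG-A replicate 1, priSG-A replicate 2 or pacSC replicate 1, and that of Hormad2 without priSG-A replicate 1 or pacSC replicate 1. Without plpSC replicate 1 all 8 genes were called there, as were 82.6% of all tested genes, and without both plpSC replicate 1 and pacSC replicate 2 again all 8 (85%). Without pacSC replicate 2 the 6 calls remained (70.2%). In rST against priSG-A the 4 calls remained without plpSC replicate 1 (87.7%), without pacSC replicate 2 (83.2%) and without both (91.4%). All 5 comparisons share stages, so their values are not independent of each other.

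**Figure D2:**
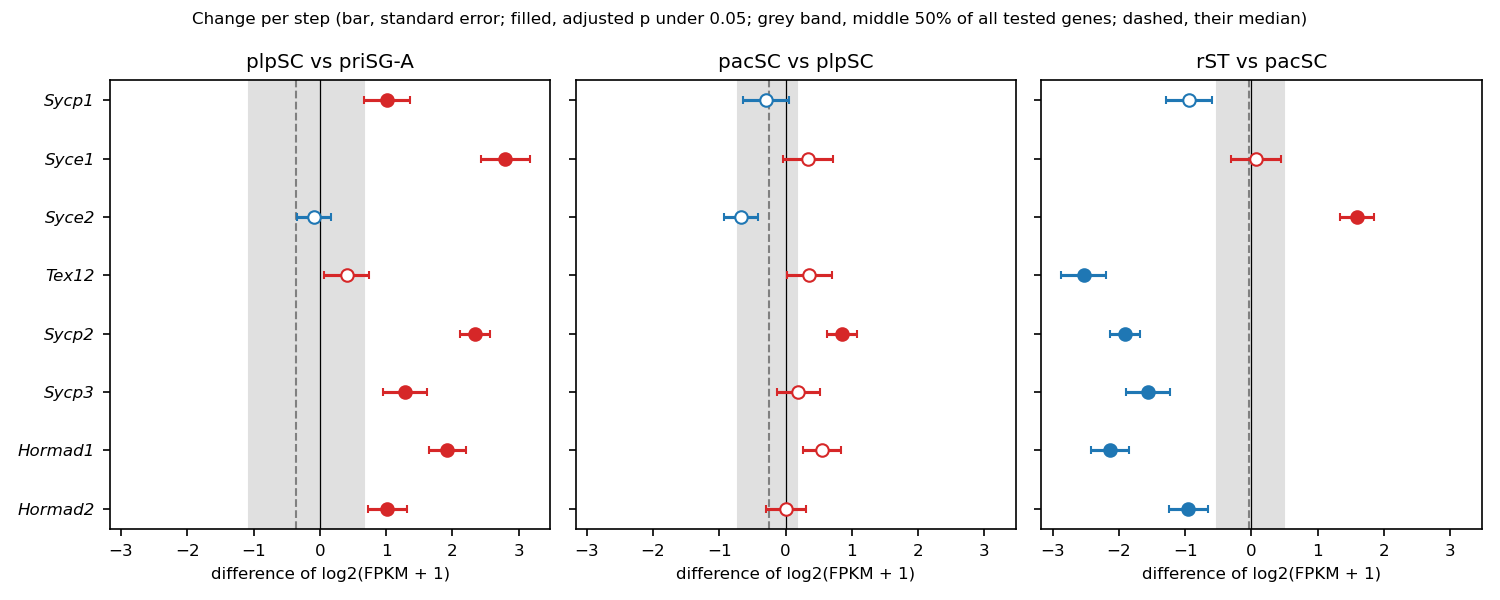
Difference of log2(FPKM + 1), later minus earlier stage (horizontal axes), for each gene (rows) at the 3 consecutive steps. Points are the limma estimates with standard errors, filled where the adjusted p was under 0.05, red above 0 and blue below it; the grey band holds the middle 50% of all tested genes and the dashed line is their median. In the step to plpSC all filled points lie above 0, in the step to pacSC only that of Sycp2 is filled, and in the step to rST Syce2 is the only filled point above 0.

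Both lateral element genes rose in plpSC and fell in rST, by unequal amounts. Sycp2 stood at 17.4 and 21.5 FPKM in priSG-A, 95.0 and 109 in plpSC, 208 and 163 in pacSC, with 51.4 and 45.8 in rST. No stage overlapped another. It rose by 2.34 on the log2 scale in plpSC against priSG-A (SE 0.23, adjusted p = 0.00021), by a further 0.85 in pacSC against plpSC (SE 0.23, adjusted p = 0.033), and in rST against pacSC its log2 difference was -1.90 (SE 0.23, adjusted p = 0.0036). In rST it was still higher than in priSG-A, by 1.28 on the log2 scale (adjusted p = 0.0010).

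Sycp3, which forms the axis core together with SYCP2, stood at 76.2 and 91.2 FPKM in priSG-A, 176 and 238 in plpSC, 315 and 174 in pacSC, and in rST 85.4 and 72.2. The plpSC and pacSC libraries overlapped, since pacSC replicate 1 was the highest and pacSC replicate 2 the lowest of those 4, and the rST libraries overlapped those of priSG-A. Its log2 difference was 1.28 in plpSC against priSG-A (SE 0.33, adjusted p = 0.011) and -1.56 in rST against pacSC (SE 0.33, adjusted p = 0.012). Sycp3 thus began at a level 4.38 and 4.25 times that of Sycp2 in the priSG-A libraries, on the FPKM scale. The ratio was 1.85 and 2.18 in plpSC, 1.52 and 1.06 in pacSC, with 1.66 and 1.58 in rST. The mm9 locus of Sycp3 (chr10:87922332-87935981) overlaps that of Chpt1, and no strand is stated for the libraries, so reads in the shared stretch could belong to either gene. Chpt1, a gene of phospholipid synthesis, itself stood at 17.0 and 17.2 FPKM in priSG-A, 10.3 and 10.1 in plpSC, 11.8 and 14.6 in pacSC, with 36.6 and 32.5 in rST. How many reads it shares with Sycp3 was not tested.

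The HORMA domain genes differed from each other in level and in amplitude. Hormad1 stood at 15.7 and 20.5 FPKM in priSG-A, 61.1 and 82.9 in plpSC, 130 and 84.0 in pacSC, and in rST 24.9 and 21.4. All plpSC and pacSC libraries were above all priSG-A and rST libraries. Its log2 difference was 1.93 in plpSC against priSG-A (SE 0.29, adjusted p = 0.0010), 0.55 in pacSC against plpSC (adjusted p = 0.20) and -2.13 in rST against pacSC (SE 0.29, adjusted p = 0.0047).

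Hormad2 stood at 4.76 and 6.75 FPKM in priSG-A, 9.40 and 16.6 in plpSC, 13.9 and 11.5 in pacSC, with 6.39 and 5.70 in rST, the lowest level of the 8 genes in each of the 8 libraries. Its log2 difference was 1.02 in plpSC against priSG-A (SE 0.30, adjusted p = 0.018) and -0.95 in rST against pacSC (SE 0.30, adjusted p = 0.042). The call in rST against pacSC was lost in 9 of 16 alternative settings, among them each library of priSG-A, pacSC and rST left out in turn, and adjusted p there ranged from 0.0086 to 0.21. Hormad1 exceeded Hormad2 on the FPKM scale 3.31- and 3.04-fold in priSG-A, 6.50- and 4.98-fold in plpSC, 9.34- and 7.33-fold in pacSC, and in rST 3.90- and 3.76-fold, so the ratio was highest in both pacSC libraries.

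Sycp1, the transverse filament gene, stood at 38.9 and 43.4 FPKM in priSG-A, 61.8 and 114 in plpSC, 85.2 and 54.6 in pacSC, with 31.3 and 39.1 in rST. Both plpSC libraries were above both priSG-A libraries, and the plpSC and pacSC libraries overlapped. The log2 difference was 1.02 in plpSC against priSG-A (SE 0.34, adjusted p = 0.032), and this call was lost in 8 of 16 alternative settings (adjusted p 0.0012 to 0.13), among them each library of priSG-A and rST and plpSC replicate 2 left out. In rST against pacSC the difference was -0.94 with an adjusted p of 0.070, which did not pass the test although both rST libraries were below both pacSC libraries.

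The central element genes followed 3 different courses. Syce1, whose protein lies in the central element beside the SYCP1 ends, stood at 43.3 and 45.3 FPKM in priSG-A, 461 and 215 in plpSC, 462 and 342 in pacSC, and in rST 402 and 430. It was the highest of the 8 genes in 5 of the 6 later libraries and did not return towards its priSG-A level. Its log2 difference was 2.80 in plpSC against priSG-A (SE 0.38, adjusted p = 0.00067), 0.34 in pacSC against plpSC (adjusted p = 0.55) and 0.06 in rST against pacSC (SE 0.38, adjusted p = 0.92). In rST against priSG-A it was 3.20 (adjusted p = 0.00012), a call kept in all 16 alternative settings. Syce1 was also the only one of the 8 genes that was higher in plpSC replicate 1 than in replicate 2, by 2.14-fold. The pachytene marker Ldhc (1943 and 803 FPKM) was also higher in plpSC replicate 1 than in replicate 2, whereas Hist1h1t was not (144 and 145). The 10 round spermatid markers summed to 1296 and 518 FPKM in these libraries. Their difference was wide for Actl7b (540 and 175) and Acrv1 (139 and 41.2) and small for Prm1 (72.3 and 60.4) and Tssk6 (1.87 and 1.49). What these differences have to do with the level of Syce1 was not tested.

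Syce2, which with TEX12 forms the fibrous backbone of the central element, stood at 106 and 112 FPKM in priSG-A, 86.3 and 120 in plpSC, 54.8 and 73.3 in pacSC, with 197 and 192 in rST. It was lowest in the pachytene libraries, where the finished complex is present, and both rST libraries were above all others. Its log2 difference was -0.09 in plpSC against priSG-A (adjusted p = 0.77), -0.68 in pacSC against plpSC (SE 0.26, adjusted p = 0.089) and 1.60 in rST against pacSC (SE 0.26, adjusted p = 0.0061). In rST against priSG-A it was 0.83 (adjusted p = 0.017), and this call was lost under quantile normalization (0.02) and when any library of priSG-A or rST was left out. Syce2 has 2 annotated transcript starts in the deposited tables, and its mm9 locus (chr8:87396010-87411345) overlaps that of Gcdh, an enzyme of lysine breakdown. Gcdh stood at 7.70 and 7.62 FPKM in priSG-A, 1.68 and 2.69 in plpSC, 0.67 and 1.19 in pacSC, with 0.70 and 0.31 in rST. How many reads the 2 genes share was not tested.

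Tex12 stood at 29.5 and 37.4 FPKM in priSG-A, 32.6 and 60.3 in plpSC, 68.7 and 47.6 in pacSC, and in rST 10.4 and 7.92. The priSG-A and plpSC libraries overlapped, as did those of plpSC and pacSC, and both rST libraries were below all others. Its log2 difference was 0.41 in plpSC against priSG-A (SE 0.34, adjusted p = 0.31), -2.53 in rST against pacSC (SE 0.34, adjusted p = 0.0047) and -1.76 in rST against priSG-A (adjusted p = 0.0016), and it was the only one of the 8 genes called lower in rST than in priSG-A. The partners Syce2 and Tex12 therefore ended far apart: the ratio of Syce2 to Tex12 on the FPKM scale was 3.58 and 3.00 in priSG-A, 2.65 and 2.00 in plpSC, 0.80 and 1.54 in pacSC, with 18.9 and 24.2 in rST.

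The make-up of the group changed as well as its total. The summed FPKM of the 8 genes was 331 and 378 in priSG-A, 983 and 957 in plpSC, 1337 and 951 in pacSC, and in rST 808 and 814. Syce1 supplied 13.1% and 12.0% of that sum in priSG-A, 46.9% and 22.5% in plpSC, 34.5% and 36.0% in pacSC, with 49.7% and 52.9% in rST. Syce2 supplied 31.9% and 29.7% in priSG-A, 8.79% and 12.6% in plpSC, 4.10% and 7.71% in pacSC, and in rST 24.3% and 23.5%. Together these central element genes thus made up most of the sum in rST. Without them the remaining 6 genes summed to 182 and 221 FPKM in priSG-A and 436 and 621 in plpSC. In pacSC they summed to 820 and 535, and in rST to 210 and 192. On the FPKM scale both rST libraries thus lay within the priSG-A range. The genes left out, Syce1 and Syce2, were those highest in rST by stage mean, so a lower rST sum follows from that choice. Like sums also hide unlike genes, since Sycp2 was called higher in rST than in priSG-A and Tex12 lower. A few abundant small RNAs took 18.35% and 22.2% of the library FPKM in priSG-A, against 2.14% and 1.82% in rST. The comparison of these sums therefore depends on how libraries are scaled.

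**Figure D3:**
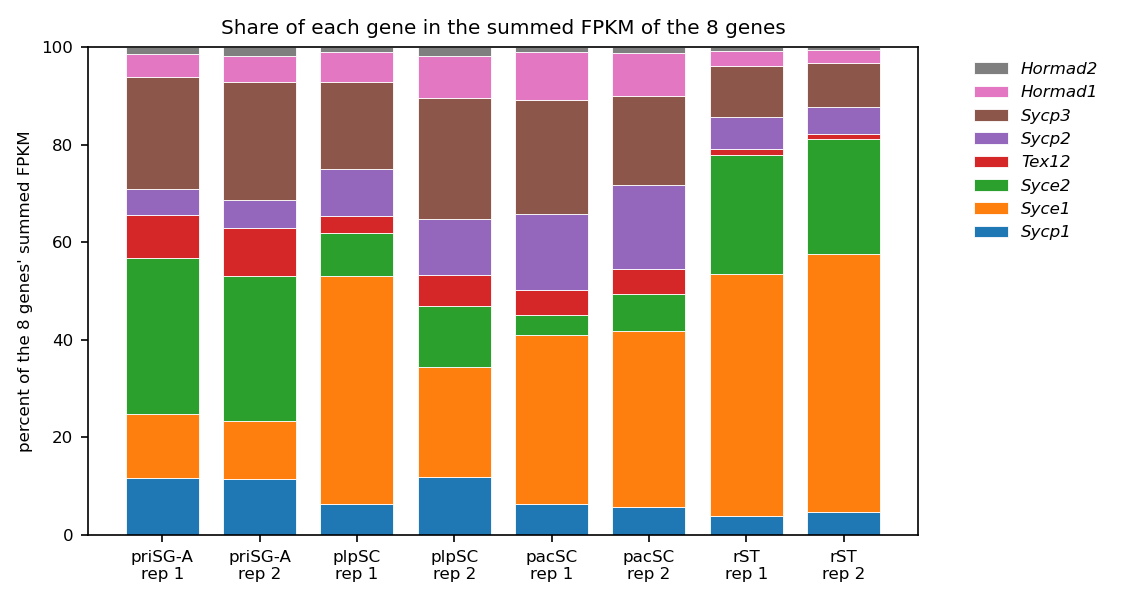
Share of each gene in the summed FPKM of the 8 genes (vertical axis, percent) in each library (horizontal axis, stages in order). Syce1 and Syce2 take 49.7% and 24.3% in rST replicate 1, whereas Tex12 is at 1.29% and 0.97% in the rST libraries; Syce1 differs between the plpSC libraries, at 46.9% and 22.5%.

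Replicates differed by more than the deposited bounds allow. Those bounds were taken as 2 SD of counting error and spanned between 0.94% and 19.4% of the value on either side over the 64 values of the 8 genes (median 3.35%), and the values rested on 106 to 44887 effective fragments. The bounds of the 2 replicates did not meet in 27 of 32 gene and stage combinations. This was not counted over all tested genes, so it does not set the 8 genes apart. Replicate 2 was the higher one for 7 of 8 genes in plpSC and for all 8 in priSG-A, and replicate 1 for 7 of 8 in pacSC and 6 of 8 in rST. Of all tested genes above 0 in both replicates, replicate 1 was the higher one for 44.3% in plpSC, 60.2% in priSG-A, 52.1% in pacSC and 64.2% in rST. The median ratio of the higher to the lower replicate over the 8 genes was 1.58 in plpSC, 1.40 in pacSC, 1.22 in priSG-A and 1.14 in rST, against 1.65, 1.26, 1.09 and 1.14 over all tested genes.

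The promoter sequences of the 8 genes are shown for the members whose windows shared a pair of short motifs, with Syce1 for contrast. RefSeq (GRCm38.p6) gave 10 start sites for the 8 genes, and the 250 bases before each were searched on both strands for GCGGGAA, the core of E2F sites, CACGTG, an E-box bound by basic helix-loop-helix proteins, TGACGTCA, the cAMP response element, TAACNG, a MYB motif, and CNCCTCAG, a motif described for STRA8. In the sequences below the GCGGGAA and CACGTG matches are in capitals, and each runs 5′ to 3′ on the strand of its gene.
Sycp3, chr10:88459337-88459586, plus strand: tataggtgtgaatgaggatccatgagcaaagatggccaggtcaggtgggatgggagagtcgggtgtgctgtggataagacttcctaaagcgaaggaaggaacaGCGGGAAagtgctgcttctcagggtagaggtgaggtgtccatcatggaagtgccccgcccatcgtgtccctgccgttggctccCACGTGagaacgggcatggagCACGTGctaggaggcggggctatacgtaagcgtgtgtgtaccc
Hormad1, chr3:95559427-95559676, plus strand: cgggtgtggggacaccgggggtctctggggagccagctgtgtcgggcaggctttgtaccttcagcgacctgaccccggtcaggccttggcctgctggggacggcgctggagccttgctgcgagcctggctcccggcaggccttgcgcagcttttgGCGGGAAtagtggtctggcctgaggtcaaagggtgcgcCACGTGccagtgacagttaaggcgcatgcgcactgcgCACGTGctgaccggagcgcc
Tex12, chr9:50561269-50561518, minus strand: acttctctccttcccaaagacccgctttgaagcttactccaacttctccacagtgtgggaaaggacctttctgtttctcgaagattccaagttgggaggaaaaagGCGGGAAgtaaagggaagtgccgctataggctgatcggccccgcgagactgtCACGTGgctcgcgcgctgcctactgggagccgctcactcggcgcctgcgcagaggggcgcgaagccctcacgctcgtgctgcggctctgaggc
Syce2, chr8:84872008-84872257, plus strand: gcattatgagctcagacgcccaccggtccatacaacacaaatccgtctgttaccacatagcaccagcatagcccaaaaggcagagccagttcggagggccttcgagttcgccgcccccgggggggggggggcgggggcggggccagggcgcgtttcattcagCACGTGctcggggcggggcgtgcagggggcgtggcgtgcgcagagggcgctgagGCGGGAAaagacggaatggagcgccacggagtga
Syce1, chr7:140787855-140788104, minus strand: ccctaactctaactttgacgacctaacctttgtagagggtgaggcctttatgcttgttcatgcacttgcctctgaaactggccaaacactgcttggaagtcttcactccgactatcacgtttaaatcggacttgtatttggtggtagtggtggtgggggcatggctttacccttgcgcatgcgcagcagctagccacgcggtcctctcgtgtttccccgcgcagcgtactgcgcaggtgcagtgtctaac

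GCGGGAA lay in the windows of Sycp3, Hormad1, Tex12 and Syce2, 4 of the 8 genes. It lay in those of 4.38% of all 27025 genes, and in 3.82% of their 32851 windows. CACGTG lay in the windows of the same 4 genes and Sycp1, and in those of 6.86% of all genes (6.02% of all windows). The 4 genes had both in 1 window, which held for 111 of the 32851 windows (0.338%). Among the 10 windows of the 8 genes, 5 held both, overlapping windows of Hormad1 among them. The pair was brought out for being shared by these members, and no other pair of the motifs was counted over all windows. Its share is thus a description and no test. Both motifs contain CG. The CG count over that expected from C and G content was 0.64 for Sycp3, 0.67 for Hormad1, 0.89 for Tex12 and 0.88 for Syce2. Its median over all windows was 0.37. GC content was 57.2%, 68%, 60% and 67.2% in these windows, against a median of 52.4%. How often windows of like composition hold the pair was not tested. All GCGGGAA matches read in the direction of the gene, and Sycp3 and Hormad1 had CACGTG in 2 places. TAACNG lay in windows of Hormad1, Sycp1, Sycp2 and Syce2 (22.3% of all genes, 19.8% of all windows). CNCCTCAG lay in those of Syce2, where it overlaps the GCGGGAA match, and Hormad2 (7.39% of all genes, 6.42% of all windows). TGACGTCA lay in none (1.77% of all genes, 1.55% of all windows). The genes with the pair did not share a course, since Sycp3, Hormad1 and Tex12 were highest in pacSC and Syce2 in rST, and the pair was in no window of the 29 genes of the meiotic lists below that had one. These matches are letters in a window and show no binding.

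Among the 8 genes, the closest courses were those of Sycp1 and Hormad2. Likeness was measured as the root mean square difference of log2(FPKM + 1) over the 8 libraries after each gene was centred on its own mean, so that 0 is an identical course. Sycp1 and Hormad2 differed by 0.22, Sycp3 and Hormad2 by 0.29, Sycp1 and Sycp3 by 0.34, Sycp2 and Hormad1 by 0.36, and Sycp3 and Hormad1 by 0.37. Syce1 was no nearer than 0.86 to any other of the 8 genes (Sycp2), and Syce2 no nearer than 1.01 (Hormad2). Syce2 and Tex12, whose proteins form 1 assembly, differed by 1.54.

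Over all tested genes, the nearest to each gene were as follows, described over the same 8 libraries and with no test. The gene nearest to Sycp3 was 4933406J08Rik (0.19), which RefSeq lists as Terb2, a gene of the complex that ties meiotic telomeres to the nuclear envelope. It stood at 1.31 and 1.45 FPKM in priSG-A, 2.43 and 4.95 in plpSC, 6.30 and 3.98 in pacSC, and in rST 1.10 and 0.62. The gene nearest to Hormad1 was 1700123I01Rik (0.23), listed by RefSeq as Majin, another gene of that telomere complex, at 1.99 and 3.50 FPKM in priSG-A, 7.51 and 10.4 in plpSC, 15.5 and 14.2 in pacSC, with 2.88 and 2.55 in rST. Hormad1 was next nearest to Atr (0.24), a kinase of the DNA damage response, and Gm1564 (0.27), listed as Meioc, which germ cells need to stay in meiotic prophase.

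Hormad2 was nearest to Abca5 (0.12), Rabgap1l and Zfp473, and Sycp1 to Hormad2, Trpc1 and Inca1. Sycp3 was nearest to Dnajc3 and Abca5 after 4933406J08Rik. Tex12 was nearest to Ccne2 (0.16), which encodes cyclin E2, then to Gm13238 and Fbxo3. Sycp2 was nearest to 4932415G12Rik (0.25), listed by RefSeq as Cep83os, then to Sdf2l1 and 4930524B15Rik. Syce1 had the closest neighbours of the 8 genes, Gkap1 (0.071), Ppp3cc (0.075), which encodes the testis form of the calcineurin catalytic subunit, and Lancl2 (0.092). Gkap1 stood at 84.6 and 84.4 FPKM in priSG-A, 898 and 398 in plpSC, 775 and 618 in pacSC, and in rST 694 and 759, which repeats the order of Syce1 within plpSC. Syce2 was nearest to Filip1 (0.14), Gsk3b and Inpp4a, of which Filip1 stayed at or below 2.68 FPKM in all 8 libraries.

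Other genes of meiotic prophase were counted from 5 lists to set beside the 8 genes. Cohesin, the ring complex that forms the base of the axis, was represented by Rec8, Rad21l, Smc1b, Stag3 and Smc3. In plpSC against priSG-A, 3 of 5 rose, Stag3 (log2 difference 1.59), Smc1b (1.37) and Rec8 (1.06), and none fell. At the step to pacSC 3 of 5 fell, Rad21l (-2.77), Smc3 (-1.97) and Rec8 (-1.44), and none rose. In rST against pacSC Rec8 (2.13) and Smc3 (1.53) rose and none fell. Rad21l, a meiotic kleisin subunit, stood at 5.64 and 8.24 FPKM in priSG-A, 6.34 and 18.5 in plpSC, 1.17 and 0.41 in pacSC, with 1.06 and 0.74 in rST, so its highest library was plpSC replicate 2. In the plpSC, pacSC and rST libraries Stag3 stayed at 113 FPKM or more and Smc1b at 87.1 or more, above both priSG-A libraries in each case, as Syce1 did.

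The list of other synapsis and axis genes had 7 of 8 members in the files. In plpSC against priSG-A Mael (log2 difference 2.15) rose and Fkbp6 (-1.54) and Trip13 (-1.48) fell. Mael and Fkbp6 act in the piRNA pathway that silences transposons in germ cells. Trip13 encodes the ATPase that removes HORMAD proteins from synapsed axes, and stood at 27.7 and 29.4 FPKM in priSG-A, 7.26 and 12.6 in plpSC, 5.16 and 4.39 in pacSC, and in rST 2.76 and 2.39, so it fell in the step in which Hormad1 and Hormad2 rose. Against plpSC, 3 fell in pacSC, Tex11 (-3.08), Tex15 (-2.29) and Trip13 (-0.88), and none rose. In rST against pacSC 3 fell, 4930447C04Rik (-1.67), which encodes the central element partner of SYCE1 and is also known as Six6os1, Fkbp6 (-1.10) and Ccdc36, listed by RefSeq as Iho1, which stood at 6.54 and 5.04 FPKM in rST and 13.6 and 11.5 in pacSC, while Tex15 (1.59) rose. The SYCE1 partner gene thus fell in a step in which Syce1 itself differed by 0.06.

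Of the genes for meiotic DNA breaks and strand exchange, 10 of 12 were in the files. In plpSC against priSG-A 3 rose, Spo11 (log2 difference 2.73), Psmc3ip (2.68), a cofactor of the strand exchange proteins, and Spata22 (1.63), and none fell. The step to pacSC saw Spo11 (1.58) rise again while 4 fell, among them Dmc1 (-2.44), Prdm9 (-2.42), the histone methyltransferase that places the breaks, and Mei1 (-1.82). In rST against pacSC Spata22 (-2.81), Spo11 (-1.61) and Brca2 (-1.33) fell and none rose. Spo11, the enzyme that makes the breaks, stood at 0.90 and 0.71 FPKM in priSG-A, 12.7 and 9.47 in plpSC, 34.2 and 35.6 in pacSC, with 12.6 and 9.22 in rST, so that the plpSC and rST libraries overlapped. Dmc1, the meiotic strand exchange protein, stood at 6.70 and 10.5 FPKM in priSG-A, 9.92 and 30.2 in plpSC, 3.61 and 1.52 in pacSC, and in rST 2.58 and 1.97, again highest in plpSC replicate 2.

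Of the crossover genes, 7 of 8 were in the files, and 5 of the 7 fell in rST against pacSC with none rising, among them Ccnb1ip1 (log2 difference -2.07), an E3 ligase, Hfm1 (-1.85), a helicase, and Mlh3 (-1.79). In plpSC against priSG-A 3 rose, Hfm1 (1.48), Msh4 (1.48) and Msh5 (1.32), and Exo1 (-0.97) fell. Mlh3 (1.11) rose in pacSC against plpSC and Msh5 (-0.78) fell. Mlh3, an endonuclease subunit that resolves crossovers, stood at 17.4 and 15.3 FPKM in pacSC and at 7.57 or less in all other libraries.

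The telomere attachment list had 6 of 8 members in the files. Its member 1700013H16Rik is placed on the X chromosome by RefSeq, may have been entered in error and is counted here without a role. In plpSC against priSG-A 4 of 6 rose, among them Spdya (log2 difference 4.07), an activator of CDK2, Ccdc155 (3.27) and Ccdc79 (2.49), and Sun2 (-1.13) fell, and without 1700013H16Rik 3 of 5 rose and 1 fell. Ccdc155, listed by RefSeq as Kash5, links telomeres to dynein, and Ccdc79, listed as Terb1, belongs to the telomere complex named above. In rST against pacSC Ccdc79 (-0.99) fell and 1700013H16Rik (1.61) rose, while Spdya and Ccdc155 did not pass the test (-0.73 and -0.27). In pacSC against plpSC 1700013H16Rik (-2.30) and Sun2 (-0.78) fell and none rose.

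List medians at the 3 steps, in stage order, were 1.06, -1.44 and 0.19 for cohesin, 0.23, -0.86 and -0.69 for other synapsis and axis genes, 0.52, -0.68 and -0.34 for breaks and strand exchange, 0.37, 0.19 and -1.13 for crossovers, and 1.67, 0.18 and -0.37 for telomere attachment (2.49, 0.46 and -0.37 without 1700013H16Rik). For the 8 synaptonemal complex and axis genes they were 1.15, 0.26 and -1.26. All tested genes had -0.35, -0.25 and -0.03. Where no gene of these 5 lists was called in a direction by limma, none passed at an unadjusted p under 0.05 either, apart from Smc3 in plpSC against priSG-A (-0.51) and Spdya in pacSC against plpSC (0.80). No test was made between lists.

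**Figure D4:**
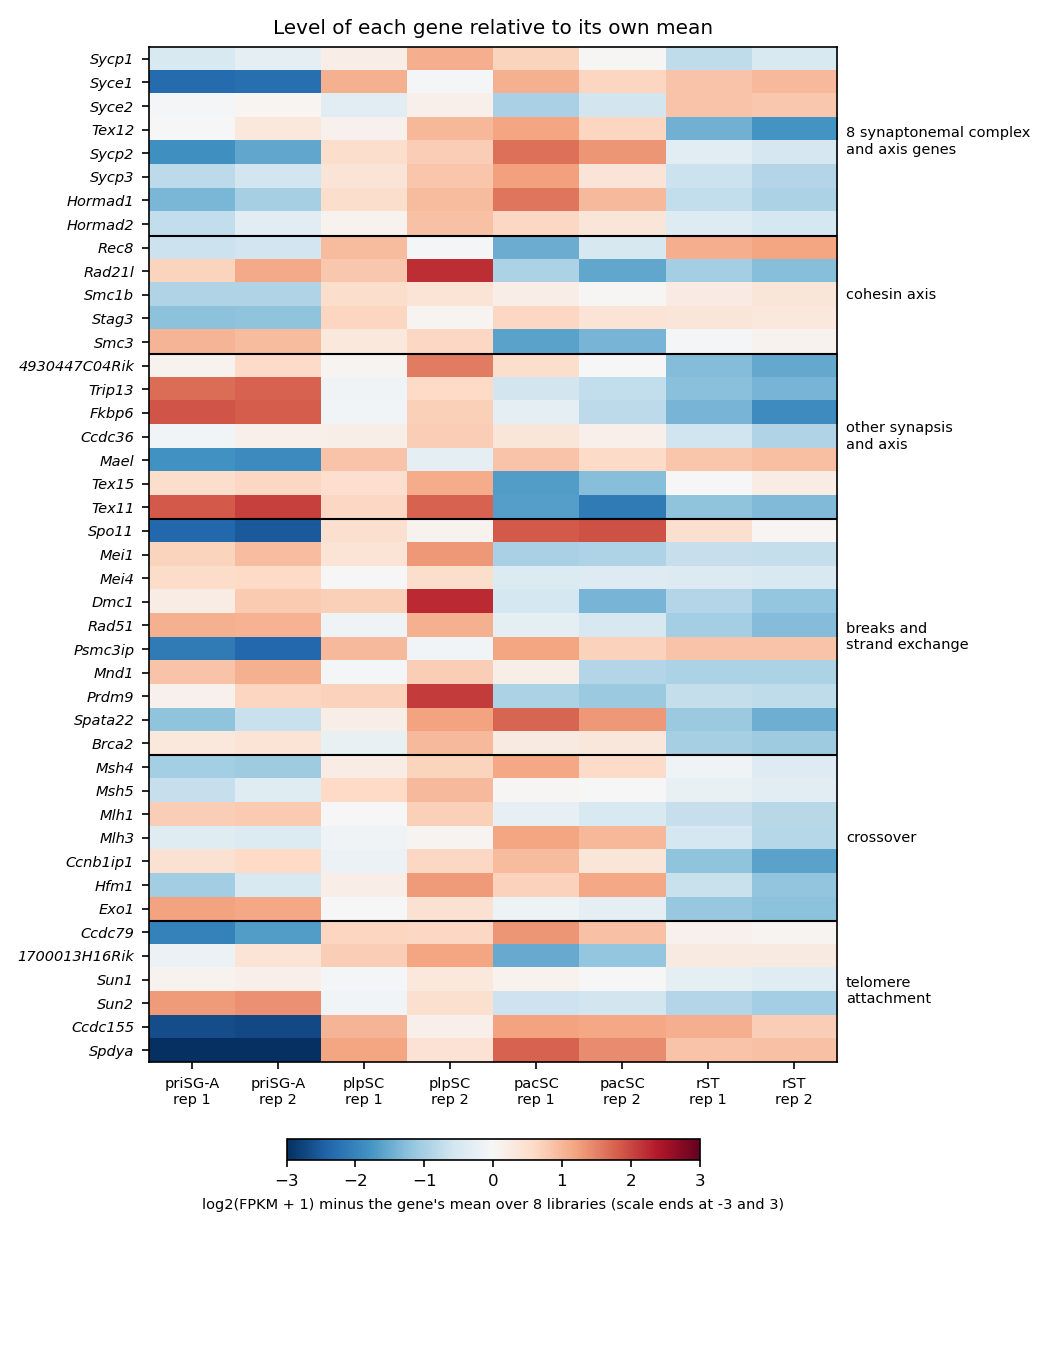
Log2(FPKM + 1) minus the gene's own mean over 8 libraries (colour, red above and blue below the mean, scale ending at -3 and 3) for the 8 genes and 35 genes of 5 meiotic lists (rows) in each library (columns). Of the 8 genes, Sycp1, Tex12, Sycp2, Sycp3, Hormad1 and Hormad2 are reddest in a plpSC or pacSC library. Syce1 is still red in rST, whereas Syce2 is below its mean in pacSC and reddest in rST. Dmc1, Prdm9 and Rad21l are darkest in plpSC replicate 2.

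In the cultured SSCs, circular RNAs lay inside the loci of Hormad2 and Sycp1 and of no other of the 8 genes. The lists gave 12266 and 25415 circular RNAs with 263855 and 560991 junction reads in the RNase R libraries, and 2601 and 3578 with 21754 and 30400 in the untreated libraries. Of these, 14 lay inside the 2 loci. At Hormad2 (mm9 chr11:4246386-4341085) the RNase R libraries held 3 and 8 of them with 43 and 179 junction reads, and the untreated libraries 1 each with 6 and 3. Per 100000 junction reads that is 16.3 and 31.9 with RNase R, and 27.6 and 9.87 without, which overlap. The most abundant, chr11:4308593-4312283, which the lists class as exonic, had 31 and 80 junction reads with RNase R and 6 and 3 without, and was the only circular RNA of these loci listed in all 4 libraries.

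At Sycp1 (mm9 chr3:102622422-102740023) the RNase R libraries held 2 circular RNAs each with 14 and 10 junction reads, and the untreated libraries 2 and 3 with 8 and 20. Per 100000 junction reads that is 5.31 and 1.78 with RNase R, and 36.8 and 65.8 without, so both treated libraries were below both untreated ones. The exonic chr3:102644785-102649011 was listed with 5 and 7 reads with RNase R and not without, whereas chr3:102644785-102657421, which shares its start, was listed with 5 and 12 reads in the untreated libraries and in neither RNase R library. These counts are too few to compare, cover counting error only, and a circular RNA missing from a list may still be present below the limit of that list.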

How the data were processed

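Total RNA of 8 germ cell libraries (4 stages, 2 libraries each) was measured as deposited FPKM values, which per the file headers carry confidence bounds. The SSC files are deposited lists of circular RNAs with counts of junction reads. Build mm9 and the tools BWA, Cuffdiff and TopHat2 2.0.6 are named in the submitters' processing notes, without steps. Strand is not given in the sources used here. FPKM of entries sharing a symbol were summed. limma 3.58.1 (R 4.3.3) was fitted to log2(FPKM + 1) with 4 stage means over all 8 libraries (4 residual degrees of freedom, eBayes with trend), for genes that reached 1 FPKM in 2 or more libraries, two-sided, with Benjamini-Hochberg adjustment over all 14111 genes at 0.05, after it was tested on simulated data. Since the values are FPKM, no count model was used. Circular RNAs were assigned to a locus that contains them whole. Figures used matplotlib 3.10.9 in Python 3.11.15.

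The 8 genes, the lists and the tests were chosen with earlier results of these data known. Named are the 8 genes, up to 3 called genes per list and step by size of change, and the 3 nearest genes to each of the 8. Alternatives were another pseudocount (0.1), no filter or a minimum of 5 FPKM, quantile normalization, median centring, a replicate block, the 4 compared libraries alone, and each library left out. Leaving out plpSC replicate 1 with pacSC replicate 2 was chosen after seeing the data. Syce3, Rec114, Meiob, Rnf212 and, by those symbols, Majin and 4930532M18Rik were not analysed here. Promoters are of another build than the loci, and no coordinates were converted.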

Additional observations from a re-analysis of the deposited data

How the results depend on the processing

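Of 23 called differences among the 40 of the 8 genes over 5 comparisons, none changed sign in any alternative, 10 kept their call in all of them, and 13 lost it in at least 1 fit without a library. Over the 640 alternative values, 551 kept sign and call, 47 lost a call, 20 gained one and 22 changed sign, all of the last for differences that were not called. With a library left out, the lone library of its stage is assumed to vary like the other stages. The number of the 8 genes called then ranged from 3 to 6 in plpSC against priSG-A, 0 to 3 in pacSC against plpSC, 0 to 7 in rST against pacSC, 4 to 8 in pacSC against priSG-A, 3 to 4 in rST against priSG-A, and 6 to 8 for any stage. In pacSC against plpSC it was 0 under quantile normalization and with the 4 compared libraries alone, and 3 without both plpSC replicate 1 and pacSC replicate 2. Quantile normalization also ended the calls of Sycp1 and Sycp3 in plpSC against priSG-A. Why calls moved was not tested.

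Sign changes of differences that were not called were as follows (log2). Median centring gave 0.092 for Syce2 in plpSC against priSG-A, 0.10 for Sycp1 in pacSC against plpSC, and 0.42 for Sycp1 and 0.56 for Sycp3 in rST against priSG-A. Quantile normalization gave -0.39 for Syce1 in rST against pacSC. Without plpSC replicate 1 and pacSC replicate 2 the values were 0.15 for Syce2 in plpSC against priSG-A, -0.24 for Hormad2 in pacSC against plpSC and -0.15 for Syce1 in rST against pacSC. With a library left out, plpSC against priSG-A ranged from -0.33 to 0.15 for Syce2 and from -0.025 to 0.84 for Tex12. pacSC against plpSC ranged from -0.37 to 0.39 for Hormad2, -0.21 to 0.88 for Syce1 (1.10 without plpSC replicate 1 and pacSC replicate 2), -0.74 to 0.14 for Sycp1, -0.23 to 0.62 for Sycp3 and -0.073 to 0.79 for Tex12. rST against pacSC ranged from -0.15 to 0.28 for Syce1, and rST against priSG-A from -0.14 to 0.29 for Hormad2 and -0.21 to 0.042 for Sycp3.

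With a library left out, the number of the 14111 tested genes called ranged from 6468 to 10748 in plpSC against priSG-A (9272 with all 8 libraries), 1074 to 7263 in pacSC against plpSC (3646), 2 to 7364 in rST against pacSC (4856), 8952 to 11653 in pacSC against priSG-A (10853), 10469 to 12379 in rST against priSG-A (11715) and 10945 to 13234 for any stage (12491). In pacSC against plpSC it was 2326 under quantile normalization, 680 with the 4 compared libraries alone and 8707 without plpSC replicate 1 and pacSC replicate 2, which gave 8203 in rST against pacSC.

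Replicate numbers were not taken to pair libraries, since the labels do not say that a number marks a shared animal or day. The deviations of same-numbered libraries correlated between -0.31 and 0.38 over the 6 pairs of stages, which does not settle whether they pair. With a replicate block, 6 members were called in plpSC against priSG-A (63.5% of all tested genes) and 1 in pacSC against plpSC (20.9%). In rST against pacSC 5 were called, with Hormad2 lost (31%). The count was 6 in pacSC against priSG-A (75.6%), 4 in rST against priSG-A (82.5%) and 8 for any stage (87.5%). The 14 circular RNAs inside the loci became 15 with any overlap and 11 with at least 5 junction reads. The 2 libraries a stage limit the precision: standard errors of the 8 genes ran from 0.23 to 0.38 on the log2 scale. The spread of a gene was pooled over the stages, so its standard error was the same in every comparison. Replicates were not equally close, with a median ratio over all tested genes of 1.65 in plpSC and 1.09 in priSG-A. Pooled errors may thus be too small where plpSC is compared and too large elsewhere.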
